A study of Bos taurus with 9 samples.

Results

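Expression in bovine endometrial cells given the full pregnancy-like treatment (GB) was compared with that in untreated cells (CON). The comparison took every gene with a mean FPKM of at least 0.5 over the 3 CON and 3 GB libraries, which kept 12549 of the 17162 genes in the deposited table and left out 4613. FPKM counts the fragments of a gene per kilobase of its length, scaled to the size of its library, so that levels of different genes can be set side by side per length. Among the genes kept, 167 passed only through GB, with a CON mean under 0.5 FPKM, and 152 passed only through CON, and a gene of this kind tends to differ by the way it was chosen.

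The cells, called BEND, derive from bovine endometrium, the lining of the uterus. CON cells received no hormone and no interferon. GA cells received 1 nM estradiol (E2) and 100 nM progesterone (P4) for 12 h. GB cells received the same 2 hormones for 12 h and then 100 ng/mL interferon tau (IFNT) for 12 h, and each group had 3 libraries. GB vs. CON therefore holds the hormones and IFNT together, and the GA values are given beside it only as levels. The sources used here do not give the collection times of CON and GA, and a difference in culture time cannot be told apart from the treatment. The study's methods describe the 3 libraries of a group as biological replicates but tie none of them to an animal, so the p-values measure the spread between replicates of these cells. Summed over all genes, the FPKM of a library came to between 1395622 and 1442723, and the read depth of a library is not in the table.

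IFNT is the type I interferon with which the ruminant conceptus signals its presence to the uterus. Like other type I interferons it acts through the receptor chains IFNAR1 and IFNAR2 and the STAT factors on genes with an interferon response element, the classical interferon-stimulated genes (ISGs). Here the classical ISGs are a fixed list of 97 symbols, of which 90 are present in these data. A gene outside the list can be interferon-stimulated too. The uterine response to pregnancy also involves antigen presentation, cytokines, prostaglandins, matrix and metabolism, and the genes of these functions were followed here in 29 lists kept apart from the classical ISGs, except for 1 classical ISG each in the lists of mitochondrial RNA (PNPT1) and of class II antigen presentation (IFI30).

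The cells are labelled as epithelial, a label that the study based on immunofluorescence of the KRT18 protein, and the transcript levels of the markers went against it. Of 26 epithelial markers in the table, 23 had a mean under 0.5 FPKM, including KRT8, KRT18, KRT19 and CDH1, the keratins and cadherin that define epithelium. KRT18 averaged 0.273 FPKM in CON and 0.350 in GB, and CDH1 0.0233 and 0.0967. By contrast all 24 stromal fibroblast markers were tested, led by S100A4, VIM (9082 FPKM in CON), COL1A2 (2729) and COL1A1 (2456). They made up 2.54% to 2.61% of the summed FPKM of the CON libraries, against 0.00302% on average for the epithelial markers, whose share was 0.00308% in GA and 0.00501% in GB. The cells are therefore called BEND cells below, without a cell type. Of the stromal markers 0 were called as DEGs, while 13 had an adjusted p under 0.05 with a fall and 1 with a rise, and their share was 2.16% to 2.22% in GB and 2.43% to 2.46% in GA. Of 19 immune cell markers in the table, only 9 were tested, and CD163, a macrophage receptor, was the only DEG (2.32 ± 0.342 to 9.23 ± 0.172 FPKM), while CD14 was the most abundant and the summed share was 0.00475% in CON and 0.00443% in GB. Of 13 smooth muscle and pericyte markers 12 were tested, led by TAGLN (4310 FPKM in CON, 4659 in GB) and ACTA2 (2856 and 2410). NOTCH3 was called higher, 7 had an adjusted p under 0.05 with a fall, such as CNN1 (671 to 458 FPKM), DES (250 to 163) and SMTN (147 to 85.1), and the median log2FC was −0.273. Of 13 endothelial markers 4 were tested and 0 were called.

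**Figure D1:**
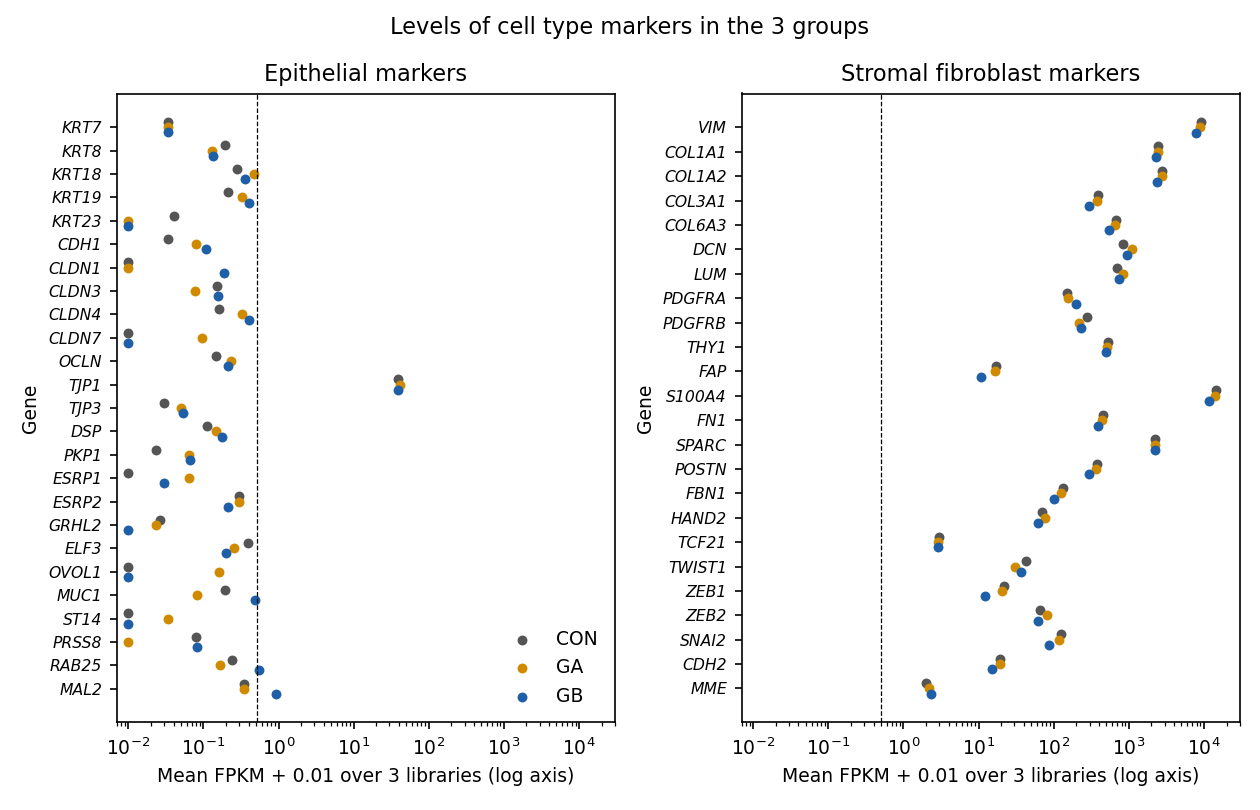
Mean FPKM plus 0.01 (x, log axis) of the epithelial markers (left, 1 marker not plotted) and each stromal fibroblast marker (right) in CON, GA and GB, each point a mean of 3 libraries and the dashed line the minimum of 0.5 FPKM. Of the epithelial markers, TJP1, a junction protein that other cells also make, lies near 40 FPKM in all groups and the others plotted lie below 1 FPKM, while the stromal markers lie to the right of the line in each group.

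Differences were tested with limma on log2(FPKM + 0.5) in a fit over all 9 libraries, and genes were called as DEGs where |log2FC| exceeded 1 and the p adjusted by Benjamini and Hochberg was under 0.05. For low genes the pseudocount makes the log2FC smaller than the change itself. GB vs. CON had 509 DEGs, which is 4.06% of the genes tested. Of these 377 were higher in GB (3.0% of all genes) and 132 lower (1.05%), so that 74.1% of the DEGs were higher. Without the fold-change threshold 4224 genes had an adjusted p under 0.05, almost evenly split between 2046 higher (16.3%) and 2178 lower (17.4%), and 3715 of them had |log2FC| of at most 1. The median log2FC of all genes was −0.0152. In 46.3% of the genes the 3 CON libraries did not overlap with the 3 GB libraries, so a lack of overlap alone says little about a gene.

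The classical ISGs accounted for 86 of the higher DEGs, from 88 tested (median log2FC 3.84), and for none of the lower ones in this fit. The other 291 higher DEGs had a median log2FC of 1.68 with a median standard error of 0.141, and 95 of them exceeded 2 and 43 exceeded 3. In GB, 187 of the 291 had a mean of at least 10 FPKM and 66 of at least 100. The mean of the group with the lower level was under 0.5 FPKM for 76 of all 377 higher DEGs and for 14 of the 132 lower DEGs. Of the 291, 54 had a LOC symbol, and for 27 of these the description in the file named a family with MHC or known interferon-induced members, among them 7 guanylate-binding proteins and 3 copies of bone marrow stromal antigen 2. The 132 lower DEGs had a median log2FC of −1.21, and 15 of them were below −2. They included 13 genes encoded in mitochondrial DNA, 11 LOC symbols and 108 other genes. Genes resting on few reads, at 0 in at least 1 library and with a narrow range of values above 0, made up 17 of the higher and 17 of the lower DEGs.

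**Figure D2:**
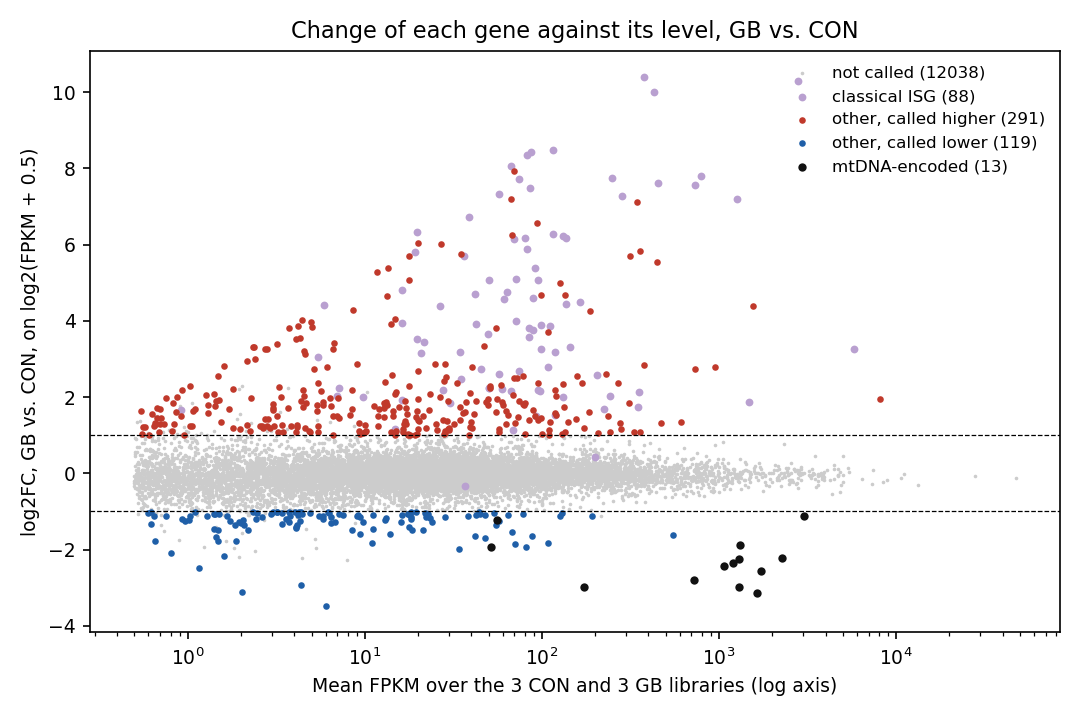
Mean FPKM over the CON and GB libraries (x, log axis) against log2FC of GB vs. CON on log2(FPKM + 0.5) (y) for all 12549 genes, with the dashed lines at a log2FC of 1 and −1. The 291 higher DEGs outside the classical ISGs cover the range of levels, while apart from the 13 mtDNA-encoded genes few of the lower DEGs exceed 100 FPKM.

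Leaving out classical ISGs, mtDNA and LOC symbols, 107 of 237 higher and 33 of 108 lower DEGs stood in a function list, so most belonged to none. The share of list members called higher was greatest for class I antigen presentation (19 of 24), complement (5 of 16), cell death (13 of 43), tryptophan, NAD and arginine metabolism (5 of 18), class II antigen presentation (3 of 11), cytokines (12 of 49) and NF-kappaB and pattern receptors (8 of 44). The mtDNA-encoded genes were the only list in which all members were called lower. Over all genes 3.0% were called higher and 1.05% lower, and the counts of each list stand beside these shares. Of 80 cytosolic ribosomal protein genes and of 22 glycolysis genes 0 were DEGs, against 4.06% of all genes. For a list of 22 genes, 0 calls lie near that share. At an adjusted p under 0.05, 12 ribosomal protein genes were lower and 4 higher, and 11 glycolysis genes were lower and 0 higher. The shares over all genes were 17.4% lower and 16.3% higher. These counts describe lists drawn up with earlier results of these data known and are not tests of enrichment.

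**Figure D3:**
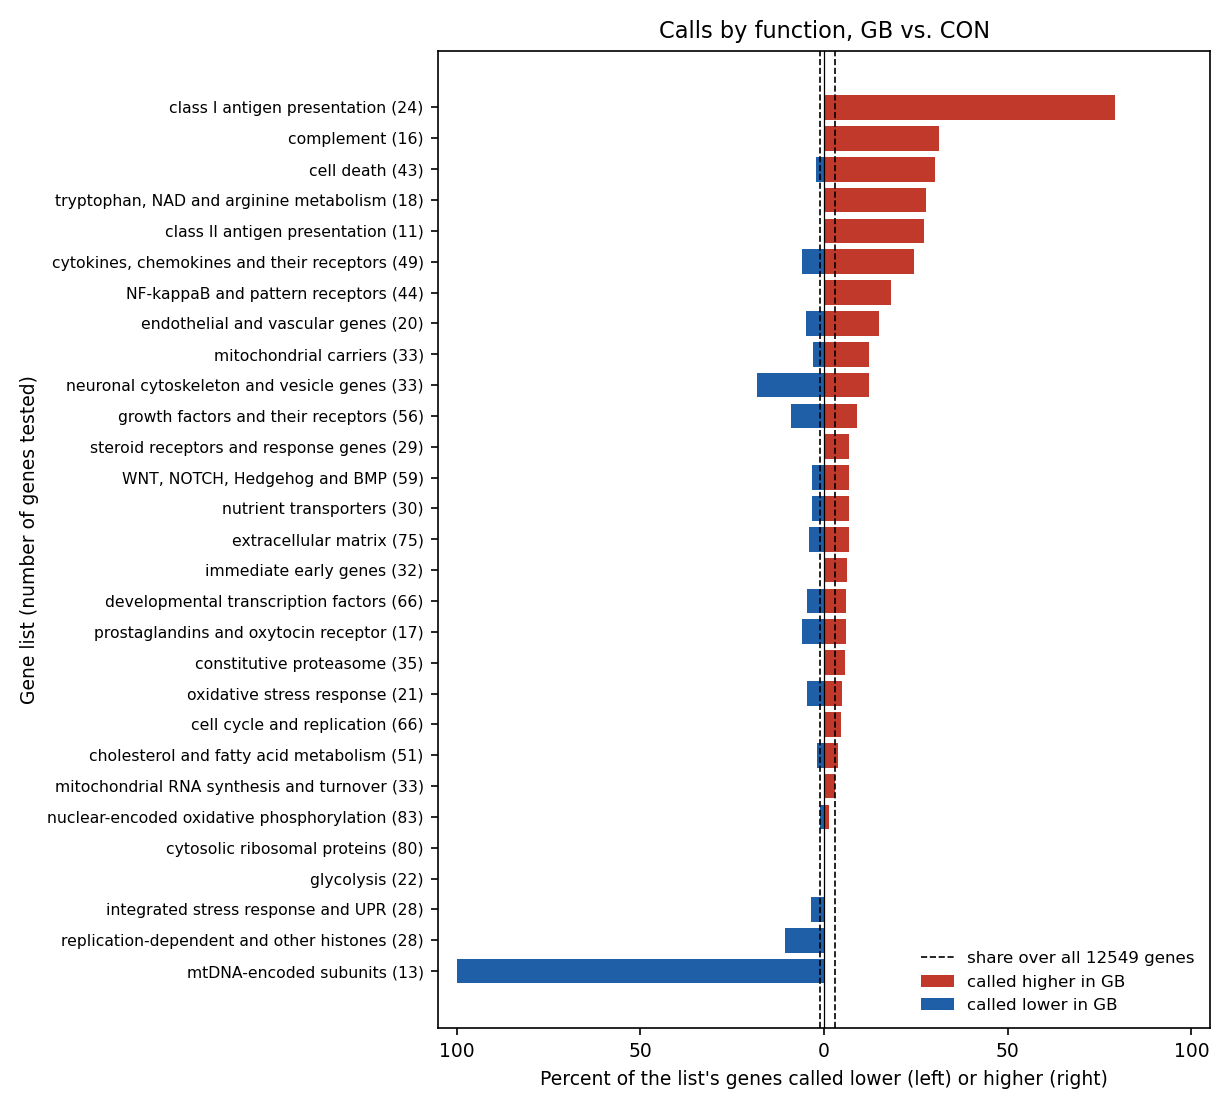
Percent of the tested genes of each list (y, number tested in brackets) called higher (right) or lower (left) in GB vs. CON, with dashed lines at the share over all genes, 3.0% higher and 1.05% lower. Class I antigen presentation and the mtDNA-encoded subunits stand at the 2 ends, and ribosomal proteins and glycolysis have no bar.

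Class I molecules display peptides cut by the proteasome, and genes of each step of that route rose. PSMB9, a catalytic subunit of the immunoproteasome, was at 0.88, 1.07 and 2.13 FPKM in the untreated libraries, against 134.3, 136.8 and 133.5 in GB (log2FC 6.24, SE 0.231, adjusted p = 4.9e-08). Its partners PSMB8 (18.1 to 358 FPKM, log2FC 4.27) and PSMB10 (19.2 to 97.7, log2FC 2.32) rose too. The activator subunits PSME1 and PSME2 went from 134.7 to 485 and from 65.0 to 393 FPKM. In each of these genes the 3 GB libraries lay above all CON and GA libraries.

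The peptide transporter subunit TAP1 was at 6.44, 6.81 and 7.79 FPKM in the untreated libraries, against 190.6, 187.7 and 196.1 in GB (log2FC 4.68, SE 0.0743, adjusted p = 1.8e-10), whereas TAP2, the other subunit, rose less (20.3 to 79.4 FPKM, log2FC 1.94). The peptide-trimming enzymes ERAP1 and ERAP2, the loading factors TAPBP and TAPBPL, and NLRC5, the transactivator of class I genes, had log2FC values of 2.42, 1.99, 1.43, 2.14 and 1.97. The light chain B2M was among the most abundant transcripts of the cells. It was at 3015, 3425 and 3573 FPKM in CON, at 3389, 3471 and 3800 in GA and at 12350, 13273 and 12931 in GB, a 3.85-fold rise (log2FC 1.95, SE 0.0694). The heavy chain genes BOLA, BoLA and BOLA-NC1 rose with log2FC values of 2.83, 3.71 and 3.82, and since class I genes are near-identical copies the split of reads among them is uncertain. The same holds for TAP2 and MDK, each of which has a second copy under a LOC symbol in the table, called higher as well.

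The general chaperones of the same route differed by less than the threshold. CALR averaged 1427 FPKM in CON and 1493 in GB, PDIA3 704 and 768, and HSPA5 532.5 and 546.7. As a whole the list went from 0.489% to 0.518% of the summed FPKM of a CON library to 1.37% to 1.41% in GB, with 0.509% to 0.542% in GA. In the constitutive proteasome 2 of 35 genes were called higher, against 3.0% of all genes. These were PSMF1, a regulator that binds the core particle (47.3 to 194 FPKM, log2FC 2.02), and the alpha subunit PSMA2 (342 to 875, log2FC 1.36). PSMB5 and PSMB6, which the immunoproteasome subunits replace, had log2FC values of −0.10 and −0.01.

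Class II genes moved in part. BOLA-DMB, which helps to load class II molecules, went from 0.707 ± 0.257 to 12.7 ± 3.74 FPKM (SD, n = 3), and CTSS, the protease that prepares them for loading, from 34.7 ± 1.24 to 125.7 ± 4.76. CD74, the invariant chain, was at 2.40 ± 0.619 in CON and 2.71 ± 0.685 in GB, and BOLA-DRA at 0.357 and 0.787, with adjusted p-values of 0.699 and 0.0948.

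In the cell death list 13 of 43 genes were called higher and 1 lower. TNFSF10, the death ligand TRAIL, had the largest rise outside the list of classical ISGs and the LOC symbols, which does not set it apart from interferon-stimulated genes. It was listed at 0.22, 0 and 0 FPKM in CON, at 0.39, 0 and 0 in GA and at 130.4, 147.1 and 138.3 in GB (log2FC 7.94, SE 0.238). The caspase CASP8, the initiator downstream of death receptors, went from 8.13 ± 1.04 to 49.2 ± 3.72 FPKM and the inflammatory caspase CASP4 from 45.3 ± 2.07 to 270.0 ± 15.2.

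Genes of lytic death were also higher, with GSDMD, which forms pores in pyroptosis, at a log2FC of 1.17 and the necroptosis kinase RIPK3 at 1.48. Its substrate MLKL stood at 1.07, and at 0.99 without the second CON library, which ends its call. The autophagy-linked membrane proteins DRAM1 and DRAM2 rose from 31.6 to 117.5 and from 42.9 to 136.0 FPKM, and DRAM2 averaged 62.3 in GA. PMAIP1 and BBC3, 2 death-promoting members of the BCL2 family, went opposite ways. PMAIP1 was at 60.8, 16.3 and 50.5 FPKM in the untreated libraries, against 102.5, 116.8 and 95.4 in GB, and its log2FC of 1.49 became 0.91 without the low second CON library, which ends the call, as does leaving out the second GB library (adjusted p = 0.0574 by limma). BBC3 fell from 14.9, 12.0 and 15.2 FPKM to 7.05, 5.75 and 3.92 (log2FC −1.29, adjusted p = 6.8e-04), with 9.22 in GA. BAX and BCL2 had log2FC values of −0.06 and −0.47.

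Among 49 cytokine, chemokine and receptor genes 12 were called higher and 3 lower. Some calls in each direction were lost with a pseudocount of 1 or without single libraries, and a higher call with a pseudocount of 0.1. The ligand TNFSF13B, the B-cell activating factor, rose from 10.8, 9.08 and 11.4 FPKM to 50.1, 53.7 and 63.4 (log2FC 2.36). The inhibitory ligand CD274 (PD-L1) went from 36.0 ± 2.13 to 88.6 ± 9.13 FPKM, the receptor chain IL15RA from 69.1 ± 7.63 to 150.9 ± 3.56, the chemokine receptor CXCR4 from 1.79 ± 0.0902 to 7.16 ± 0.628, and the hematopoietic ligand FLT3LG from 5.07 ± 0.932 to 13.4 ± 1.28. CCL2, which draws monocytes, was uneven in GB, at 19.96, 44.3 and 24.7 FPKM against 7.93 to 12.6 in CON. The cytokine subunit IL23A went from 2.18 ± 0.724 to 8.62 ± 0.0611 FPKM, with 4.38 in GA. For IL7, a lymphocyte growth factor, GA (mean 11.1 FPKM) lay nearer to GB (14.3) than to CON (5.70). The abundant neutrophil chemokine CXCL5 was not called (747 and 701 FPKM), nor was CXCL8 (40.4 and 43.3).

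The interferon receptor chain IFNAR1 fell. It was at 32.5, 29.7 and 34.7 FPKM in CON, at 35.7, 36.0 and 38.1 in GA and at 12.4, 15.1 and 15.2 in GB (log2FC −1.16, SE 0.088, adjusted p = 1.1e-05), while its partner IFNAR2 had a log2FC of 0.26. CCL4 was listed at 1.61, 1.67 and 1.56 FPKM in the untreated libraries, against 0 in all GA and GB libraries, and it rests on few reads.

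Of the complement genes 5 of 16 tested were called higher, all of the classical pathway or its control. C4A went from 0.537 ± 0.0416 to 8.63 ± 0.577 FPKM, C2 from 1.81 ± 0.149 to 16.2 ± 0.467, and the proteases C1R and C1S from 8.55 to 38.2 and from 7.28 to 21.5. Their inhibitor SERPING1 rose from 5.72 to 20.9 FPKM. C3, the component on which the pathways meet, was at 2.21 and 2.17 FPKM.

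In the NF-kappaB and pattern receptor list 8 of 44 genes were called higher and 0 lower. TIFA, an adaptor of NF-kappaB signalling, was at 0.92, 0 and 0.3 FPKM in CON, at 1.55, 0 and 0.33 in GA and at 58.2, 51.2 and 50.9 in GB (log2FC 6.02, SE 0.498). The receptors TLR3 and TLR4 (log2FC 1.25 and 1.22), the factors IRF2 and IRF3 (1.51 and 1.34) and the ubiquitin ligase RBCK1 (1.80) rose less. RELA, a subunit of NF-kappaB itself, and its inhibitor NFKBIA had log2FC values of −0.19 and 0.42.

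The genes with the largest rises outside these systems had varied roles. PARM1, a mucin-like membrane protein, was at 8.70, 10.4 and 10.5 FPKM in CON, at 10.9, 8.59 and 9.35 in GA and at 264, 262 and 259 in GB (log2FC 4.67, SE 0.0938, adjusted p = 6.3e-10). SLC15A3, a lysosomal peptide transporter, rose from 0.06, 0.23 and 0.27 FPKM to 34.1, 36.2 and 35.2 (log2FC 5.71).

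ATP8B4, of the lipid flippase family, averaged 1.26 FPKM in CON and 28.4 in GB, the tetraspanin TSPAN32 1.34 and 26.7, and KIF5C, a kinesin motor known from neurons, 0.143 and 6.25. LMO2, a transcriptional adaptor known from blood formation, was listed at 0, 0.87 and 0 FPKM in the untreated libraries, against 11.8, 7.12 and 10.3 in GB. CCDC194, THEM6 and ABHD1 also rose, with log2FC values of 5.28, 3.97 and 3.21. For each of these genes the GA libraries lay within or near the CON range and below every GB library.

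In absolute terms the largest rises among DEGs outside the classical ISGs and LOC symbols were those of B2M, WARS and EIF4E. WARS, the tryptophanyl-tRNA synthetase, was at 232, 248 and 233 FPKM in the untreated libraries, against 1711, 1644 and 1609 in GB (log2FC 2.80, SE 0.0414, adjusted p = 1.4e-10). NAMPT, which makes a precursor of NAD, went from 17.5 ± 1.14 to 83.8 ± 2.76 FPKM, the amino acid oxidase IL4I1 from 1.14 to 4.88, and the polyamine enzyme SAT1 from 122.1 to 349. ODC1, which starts polyamine synthesis, was lower with a log2FC of −0.75 (425 to 253 FPKM, adjusted p = 9.4e-07), under the fold-change threshold.

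EIF4E, the cap-binding protein of translation, was at 190.7, 171.9 and 203.9 FPKM in the untreated libraries, against 1248, 1248 and 1305 in GB (log2FC 2.75, SE 0.0599, adjusted p = 1.0e-09). EIF4EBP2, a repressor that binds EIF4E, fell from 829, 769 and 888 FPKM to 253, 271 and 279 (log2FC −1.63, SE 0.0621), the largest absolute fall among DEGs outside mtDNA. Its relative EIF4EBP1 was not called (612 and 547 FPKM). The elongation factor EEF1A2 fell from 14.4 ± 1.59 to 4.45 ± 0.587 FPKM. EIF4EBP2 was the only DEG among 28 genes of the integrated stress and unfolded protein responses. ATF4, DDIT3 and HSPA5 had log2FC values of 0.16, 0.19 and 0.04.

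**Figure D4:**
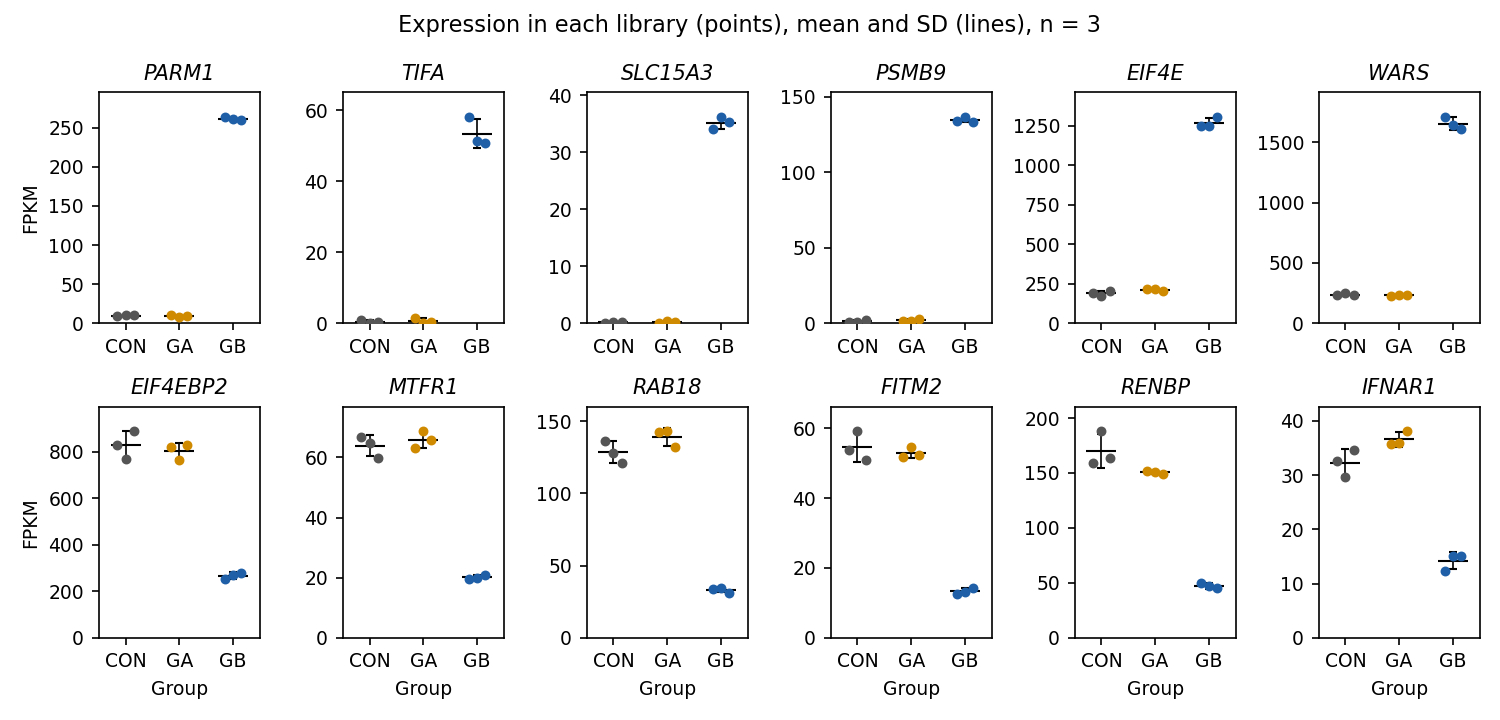
FPKM (y, from 0) of 12 genes in each CON, GA and GB library (points), with the mean and SD of each group (lines, n = 3). In the upper row PARM1, TIFA, SLC15A3, PSMB9, EIF4E and WARS are high in GB, and in the lower row EIF4EBP2, MTFR1, RAB18, FITM2, RENBP and IFNAR1 are low in GB, with the GB libraries apart from the CON and GA libraries in each panel.

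Among the named falls, FITM2, needed for lipid droplet formation, was at 53.8, 59.1 and 50.9 FPKM in the untreated libraries, against 12.5, 13.2 and 14.3 in GB (log2FC −1.99, adjusted p = 3.3e-08), and RAB18, a small GTPase of lipid droplets, fell from 136.2, 128.3 and 121.1 FPKM to 34.0, 34.4 and 31.4 (log2FC −1.93). The ornithine carrier SLC25A15 fell from 17.4 ± 0.980 to 4.72 ± 2.07 FPKM and MTFR1, a regulator of mitochondrial fission, from 63.9 ± 3.54 to 20.1 ± 0.628. GPD1L, of the glycerol-3-phosphate dehydrogenase family, went from 21.0 to 6.72 FPKM. GA means lay near those of CON for these genes, at 52.9, 139.2, 17.3, 65.9 and 23.0 FPKM.

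Other falls were those of RENBP, an epimerase of amino sugars (170.0 to 47.3 FPKM), of FAM92A, a membrane-shaping protein (110.8 to 30.5), and of the small membrane proteins SMIM4 and SMIM11A (133.9 to 42.8 and 73.4 to 22.3). SMIM10, which had the lowest log2FC of all DEGs, GNG4 and LEAP2 rest on few reads. GNG4 was listed at 5.01, 5.02 and 2.14 FPKM in the untreated libraries, against 0 in GB, and LEAP2 at 2.37, 2.44 and 2.09 in CON and at 0 in GA and GB.

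The 13 genes encoded in mtDNA, subunits of the respiratory chain and of ATP synthase, were all called lower. They were 1.91%, 1.73% and 1.89% of the summed FPKM in CON, 1.96%, 2.01% and 2.02% in GA and 0.399%, 0.410% and 0.430% in GB. The size of the fall varied among them. COX1, the most abundant, fell least, from 4250, 3813 and 4363 FPKM to 1821, 1952 and 1937 (log2FC −1.12, SE 0.0546), whereas COX2 fell from 2949 ± 97.3 to 499 ± 22.3 (log2FC −2.56). For CYTB and ND4 the log2FC was −2.97 and −2.99. ND6, the gene of the light strand, had a log2FC of −1.89. ATP8 averaged 80.0 ± 39.4 FPKM in CON, and its log2FC of −1.23 became −0.86 without the third CON library, the highest, which ends its call. Pairs such as ATP6 and ATP8 or ND4 and ND4L overlap, so the split of their reads is uncertain. In these bulk samples fewer cells of a kind and less RNA per cell cannot be told apart.

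The nuclear partners did not fall alike. Of 83 nuclear-encoded genes of oxidative phosphorylation 1 was called higher and 1 lower, with a median log2FC of −0.0994. COX7A1 rose from 26.2, 20.2 and 17.9 FPKM to 133.6, 122.3 and 111.6 (log2FC 2.50), and COX6B2 was lower (29.9 ± 9.14 to 14.1 ± 3.47), a call lost without the first CON library (−0.82) or the third GB library (−0.90). Among 33 genes of mitochondrial RNA synthesis and turnover, the nuclease PNPT1, also a classical ISG, was the only DEG, from 21.2, 17.3 and 20.9 FPKM to 128.7, 124.4 and 132.1 (log2FC 2.67). The mitochondrial RNA polymerase POLRMT and the RNA-stabilizing LRPPRC were slightly higher (log2FC 0.40 and 0.16, adjusted p = 0.0036 and 0.0149). The iron carrier SLC25A28 rose from 15.5 to 53.1 FPKM.

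**Figure D5:**
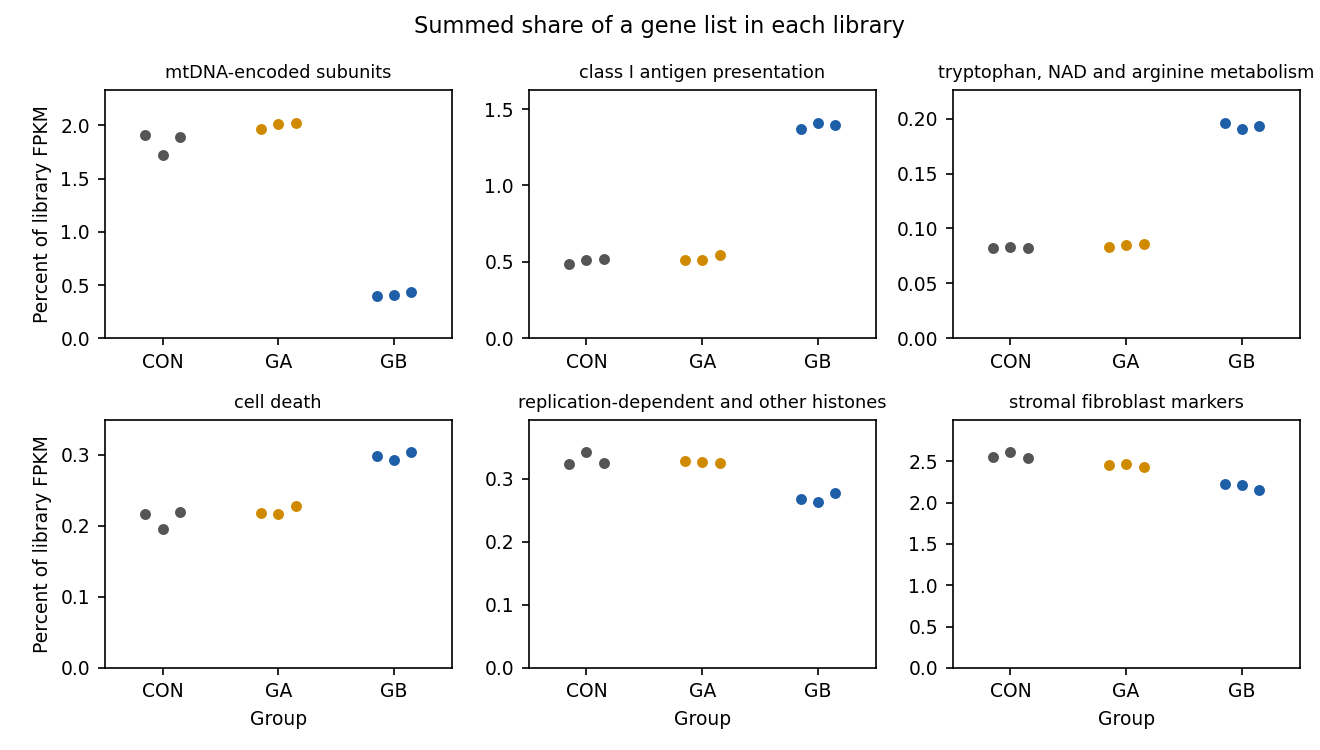
Percent of the summed FPKM of a library (y, from 0) held by 6 gene lists in each CON, GA and GB library (points). The mtDNA-encoded share is lower in GB and the shares of class I presentation, of tryptophan, NAD and arginine metabolism and of cell death are higher, while histones and stromal markers are lower by a smaller margin.

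All 11 glycolysis genes with an adjusted p under 0.05 were lower, with ALDOA going from 1523 to 1147 FPKM (log2FC −0.41) and GAPDH from 5365 to 4358 (−0.30). PGK1, of the same pathway, was at 734 and 751 FPKM and not among them. The glucose transporter SLC2A1, in contrast, rose from 17.9 ± 1.24 to 41.2 ± 4.02 FPKM (log2FC 1.17). In the cholesterol and fatty acid list 2 of 51 genes were called higher and 1 lower, near the shares of 3.0% and 1.05% over all genes. ACSL5, which activates fatty acids, rose from 21.8 ± 0.610 to 76.9 ± 3.35 FPKM, and CH25H, which makes 25-hydroxycholesterol, fell from 18.3 ± 0.636 to 7.92 ± 0.469 (log2FC −1.16). The other higher call, ACADM of fatty acid oxidation at a log2FC of 1.01, was lost without the second CON library (0.83) or without the second or the third GB library (0.99 and 0.94). SQLE, an enzyme of cholesterol synthesis, was not called (45.7 and 44.0 FPKM). MGST1, an enzyme against lipid peroxides, was the only higher DEG of the oxidative stress list (log2FC 1.41). The cystine transporter SLC7A11 fell from 2.67 ± 0.600 to 0.810 ± 0.121 FPKM.

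Of 29 steroid receptor and response genes 2 were called higher and 0 lower, against 3.0% and 1.05% of all genes. GREB1, an estrogen target, was at 0.09, 0.11 and 0.38 FPKM in CON, at 2.23, 2.12 and 2.44 in GA and at 2.51, 2.48 and 2.03 in GB (log2FC of GB vs. CON 2.05, adjusted p = 4.5e-05). The progesterone receptor PGR was at 11.2, 11.7 and 11.2 FPKM in CON, at 14.3, 15.1 and 16.6 in GA and at 23.3, 22.0 and 25.8 in GB, and its log2FC of 1.03 was 0.96 without the third GB library, which ends the call. ESR1, the estrogen receptor, was not called (8.14 and 7.28 FPKM). Genes of other lists also had GA means nearer to GB than to CON, such as NTS, the neuropeptide neurotensin (62.0, 149.7 and 178.5 FPKM in CON, GA and GB), the ligand WNT6 (1.47, 4.52 and 4.93) and the collagen hydroxylase P4HA3 (1.32, 3.09 and 3.81). For these 4 genes, GREB1 included, the rise from CON cannot be assigned to IFNT from GB vs. CON.

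The prostaglandin genes central to the bovine uterus were mostly within the threshold. PTGS2, the inducible cyclooxygenase, was at 88.3, 93.2 and 85.3 FPKM in the untreated libraries, against 82.1, 89.2 and 91.6 in GB. PTGS1, the constitutive form, was lower (73.3 ± 2.94 to 49.2 ± 2.35 FPKM, log2FC −0.57, adjusted p = 6.9e-04). The prostacyclin receptor PTGIR rose (1.08 ± 0.386 to 3.26 ± 0.497, log2FC 1.27) and the lipoxygenase ALOX12 fell from 74.7, 83.0 and 85.5 FPKM to 35.3, 33.7 and 32.4 (log2FC −1.25), with 55.4, 57.8 and 62.7 in GA.

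Among 56 growth factor and receptor genes 5 were called in each direction. The vasoconstrictor EDN2 rose from 1.48 ± 0.676 to 9.46 ± 1.78 FPKM, the heparin-binding factor MDK from 20.6 ± 2.56 to 76.0 ± 7.15, and the receptor MST1R from 3.23 ± 0.353 to 9.98 ± 0.650. IGFBP5, which binds insulin-like growth factors, fell from 9.11 ± 1.78 to 3.82 ± 0.561 FPKM, and its GA mean was 4.90. HGF fell from 39.4 ± 3.91 to 17.6 ± 3.84 (log2FC −1.16, and −0.99 without the first GB library, which ends the call). The lower calls of PDGFA and of TAC1, a neuropeptide precursor with the lowest log2FC of the list (−1.22), also rest on single libraries, at −0.91 and at an adjusted p of 0.0834 (limma) without that library and at −0.83 and 0.062 without the third CON library. Of the 5 lower calls 2 were kept without the first GB library and 3 without the third CON library. In WNT and NOTCH signalling the receptor NOTCH3 rose from 1.17, 1.14 and 1.2 FPKM to 11.3, 11.3 and 10.4 (log2FC 2.78), and DKK1, a secreted WNT inhibitor, from 269 ± 15.5 to 672 ± 15.7. Of 59 genes of this list 4 were called higher and 2 lower, and the lower calls rest on single libraries, with 0 left without the first GB library.

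Among 20 endothelial and vascular genes 3 were called higher and 1 lower. NOSTRIN, which traffics nitric oxide synthase, rose from 2.65 ± 0.145 to 10.2 ± 0.624 FPKM, and VASH1, an inhibitor of vessel growth, fell from 3.76, 2.42 and 2.88 FPKM to 0.47, 1.34 and 1.10. The remaining calls were EDN2, given above, and EDN1, another endothelin (1.03 ± 0.255 to 2.91 ± 0.530). The call of EDN1 was lost with a pseudocount of 1 (log2FC 0.94).

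The matrix list had 5 genes called higher and 3 lower of 75. Without the fold-change threshold falls prevailed, with 36 lower and 13 higher at an adjusted p under 0.05. AGRN, a basement membrane proteoglycan, rose from 5.36 ± 0.458 to 24.4 ± 0.266 FPKM and the crosslinking enzyme TGM2 from 5.74 ± 0.595 to 20.1 ± 1.64. The protease MMP3 was at 172, 168 and 185 FPKM in CON, 115.7, 130.7 and 131.8 in GA and 84.9, 85.2 and 85.9 in GB, with a log2FC of −1.03 that was −0.99 without the third CON library, which ends the call. The lower call of SPOCK2 was lost without the third GB library (−0.99). That of MMP16 was lost without the first CON library (−0.997) or with a pseudocount of 1 (−0.88). Of the higher calls, OGN was lost without the second CON library (0.93) or with quantile normalization (0.98), and SDC1 without the third GB library (0.99). Among the fibrillar collagens, COL1A1, COL1A2 and COL3A1 had log2FC values of −0.11, −0.22 and −0.38. The stromal and the smooth muscle and pericyte markers were lower on the whole in the same libraries, as given above, and their part in the matrix values was not tested.

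Of 66 developmental transcription factors 53 were below 0, with a median log2FC of −0.306 (−0.0152 over all genes). At an adjusted p under 0.05, 19 were lower and 8 higher, against 17.4% and 16.3% of all genes. FOXS1, a forkhead factor, rose from 14.5 ± 1.57 to 63.8 ± 2.66 FPKM and was one of 4 members called higher, against 3 called lower, or 5 lower without the first CON or the second GB library. HOXA10 and HAND2, markers of the uterine stroma, had log2FC values of −0.04 and −0.17. Of 28 histone genes 26 were below 0, and 13 were lower and 0 higher at an adjusted p under 0.05. As DEGs 3 were called lower, HIST1H2BB falling from 91.9, 76.5 and 94.4 FPKM to 37.1, 49.7 and 37.2, and 6 were called lower without the third GB library. Libraries were made from poly(A) RNA, and most messages of replication-dependent histones lack poly(A). In the cell cycle list 3 of 66 were called higher, near the share of 3.0% over all genes. They were SASS6 of centriole assembly, the mitotic kinase MASTL and the p53 regulator MDM4 (log2FC 1.56, 1.36 and 1.18). CCND1 and CCND3, cyclins of the same phase, had log2FC values of −0.50 and 0.85, short of the threshold.

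Immediate early genes, which respond quickly to stimuli, were mixed. ATF3 rose from 24.4 ± 2.58 to 56.0 ± 3.17 FPKM, and RGS2, called at a log2FC of 2.19 on few reads with a CON library at 0, lost its call without any single GB library (adjusted p = 0.0582 to 0.0641 by limma). KLF2 (58.8 to 30.0 FPKM) and JUND (250 to 129) had log2FC values of −0.96 each, just short of the threshold, and JUND averaged 168 in GA. ZFP36, MYC, JUN and FOS were not called, with log2FC values of 0.89, 0.71, 0.60 and 0.08. Among neuronal cytoskeleton and vesicle genes, a list drawn up because such genes stood among the lower DEGs, 6 of 33 were called lower, including TUBB3 (25.6 ± 3.81 to 10.7 ± 0.311 FPKM) and KIF1A (9.35 ± 0.484 to 3.50 ± 0.122), against 4 called higher. Of the lower calls those of KIF21B, NSG1 and SCRN1 were lost with a pseudocount of 1, which left 3. NSG1 also lost its call without the second CON library (−0.80) or without the first or the second GB library (−0.90 and −0.88), KIF21B without the second GB library (−0.999) and SCRN1 without the third CON library (−0.92).

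At the edge of the call, GALM had a log2FC of 1.00 (73.3 and 147 FPKM) and KAT2A one of 0.997 (15.2 and 30.8 FPKM), so that the 2 genes fall on different sides with nearly equal changes. PDGFA, at −1.004 (5.86 and 2.60 FPKM), lay just past the threshold on the lower side. The calls of GALM and PDGFA were lost in several of the alternative settings.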

How the data were processed

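RNA from 9 libraries of BEND cells (3 each of CON, GA and GB) was sequenced from poly(A) libraries. Per the labels and the study's methods, the authors trimmed reads with fastp 0.21.0, removed ribosomal reads with Bowtie2, aligned to ARS-UCD 1.2 with HISAT2 2.2.1 and quantified with RSEM 1.3.3, and the deposited values are FPKM with 2 decimals. Read counts were not used here, so depth is known only in part: the FPKM value of 1 read, estimated from 9 to 125 genes of few reads, was 0.945 to 1.14 times that of the first CON library. FPKM hides low counts, and intervals from counts are not given. Genes of few reads are those at 0 in at least 1 library whose highest value is under 10 times the lowest value above 0.

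Genes with a mean of at least 0.5 FPKM over the CON and GB libraries were tested with limma 3.58.1 (R 4.3.3) on log2(FPKM + 0.5), eBayes with a variance trend, all 9 libraries in the fit, and Benjamini-Hochberg adjustment over all genes tested. On simulated data for GB vs. CON with 12549 genes, 195 of 200 genes changed by a log2FC of −2, −1.5, 1.5, 2 or 3 were recovered with 2 false calls, and changes nearer to the threshold of 1 were not simulated. The changed genes were drawn only from those with a mean log2(FPKM + 0.5) above 1, and the noise was normal. Recovery of lower genes, or of genes at 0 in some libraries, is therefore not known from it. For shares of summed FPKM no p is given, since 3 against 3 libraries cannot go below 0.1 in an exact permutation test.

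The genes, gene lists and comparison were chosen with earlier results of these data known. The genes named were list members, the 20 largest rises and falls with libraries apart and at least 1 FPKM in each library of the higher group, the 10 largest absolute differences each way (both without classical ISGs, mtDNA genes and LOC symbols) and those nearest the thresholds. Pseudocount, filter, scaling, fit, replicate block and left-out libraries were varied. Results for a few genes are not reported here. Figures were drawn with matplotlib 3.10.9.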

Additional observations from a re-analysis of the deposited data

How the results depend on the processing

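The number of genes called higher was 345 to 402 over the alternatives (377 as reported) and the number called lower 97 to 176 (132), both ends set by the pseudocount, 1 giving the fewest and 0.1 the most calls. Outside the classical ISGs 259 to 316 genes were called higher. Leaving out 1 library gave 359 to 389 higher and 121 to 158 lower, and without genes of few reads, an alternative chosen after seeing the data, 360 and 115. The replicate block gave 374 higher and 134 lower and 4073 genes with an adjusted p under 0.05 (4224 without it). No pairing by replicate number was seen, as the deviations of same-numbered CON and GB libraries correlated at 0.039, 0.009 and −0.004 across genes. Differently numbered ones correlated at −0.038 to 0.03. Correlations over all genes cannot exclude that same-numbered libraries had a common origin. Of 351 DEGs followed singly, 294 kept the call under all of the 21 alternatives that gave a value and 0 changed sign. These 351 hold the 86 called classical ISGs, whose changes were mostly large, and the other DEGs under the rule for named genes. They also hold DEGs chosen after their values were seen, so the count does not describe the shifts outside the classical ISGs alone. Small list counts also moved, such as the steroid genes called higher from 2 to 1 with a pseudocount of 1, with quantile normalization or without the third GB library, and the WNT and NOTCH genes called lower from 2 to 0 with a pseudocount of 1 and to 4 with 0.1. All 13 mtDNA-encoded genes were called lower under each alternative except without the third CON library, with 12. FPKM without counts limits what can be said of genes near 1 FPKM.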

Other observations

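The following genes were outside the rule for named genes and were chosen after their values were seen, so they are given as values (limma, all with an adjusted p under 0.05 and kept as DEGs under each alternative that gave a value). Several belong to ubiquitin handling and selective autophagy. The autophagy receptor CALCOCO2 was at 17.0, 17.8 and 16.2 FPKM in the untreated libraries, against 83.1, 86.5 and 84.4 in GB (log2FC 2.28). The ubiquitin ligase scaffold CUL4B went from 12.2 ± 2.10 to 46.4 ± 1.05 FPKM, the deubiquitinase ATXN3, of which the table holds a second copy, from 15.6 ± 0.591 to 58.6 ± 1.13, and the ubiquitin-like modifier UBD from 1.72 ± 1.27 to 7.04 ± 1.09. CHMP5, of the membrane-sorting ESCRT machinery, went from 134.7 ± 9.69 to 282.8 ± 4.21.

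Genes of RNA turnover were also among them. XRN2, a nuclear exonuclease, was at 62.7, 57.5 and 63.4 FPKM in the untreated libraries, against 203.7, 203.2 and 205.1 in GB (log2FC 1.73), the poly(A) polymerase PAPD4 went from 27.2 ± 0.406 to 83.6 ± 2.64, and the decapping enzyme DCP2 from 22.2 ± 5.33 to 57.2 ± 13.2, with 30.3 in GA. GRINA, a membrane protein of the TMBIM family, rose from 43.2 ± 2.91 to 220.1 ± 1.42 FPKM, and RICTOR, a subunit of the mTORC2 kinase complex, from 9.41 ± 0.333 to 23.9 ± 0.955.

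RARRES1, a retinoic acid responder, was at 111.2, 96.1 and 109.4 FPKM in CON, at 174.9, 169.6 and 164.9 in GA and at 247.2, 233.7 and 244.7 in GB, so that GA lay between the other groups. Surface receptors were among the falls. The bradykinin receptor BDKRB2 went from 22.8 ± 4.21 to 9.22 ± 1.91 FPKM, the immune checkpoint protein VSIR from 9.83 ± 0.943 to 3.76 ± 0.713 and the adhesion receptor CXADR from 6.24 ± 1.07 to 2.34 ± 0.390. The most abundant LOC symbol among the higher DEGs was LOC112444847, described as an interferon-induced transmembrane protein, at 141 ± 20.3 FPKM in CON and 2963 ± 109 in GB. IL32 was listed at 0 in all CON and GA libraries but reached 2.70, 2.03 and 0.48 FPKM in GB, and it rests on few reads.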
